A study of Mus musculus with 6 samples.

Results

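The adult globin genes *Hba-a1*, *Hba-a2*, *Hbb-bs* and *Hbb-bt* and the erythroid genes *Alas2*, *Slc4a1* and *Ahsp* were examined as the trace of blood in RNA-seq libraries of mouse dental pulp. The 7 genes were taken by name. Of these, 6 had a row in the table of 27506 genes, and *Ahsp*, which encodes a chaperone of free alpha globin, was not analyzed here. Dental pulp was dissected from the lower jaw's first molar at 3.5 days after birth in C57BL/6 mice, and 3 libraries of Ror2fl/fl mice (control) were compared with 3 libraries of Osr2-Cre;Ror2fl/fl mice (mutant). Mice of both groups carry the floxed *Ror2* alleles. The mutant mice came from crosses of Osr2-Cre;Ror2fl/+ fathers with Ror2fl/fl mothers, and the labels do not say whether the controls were their littermates. The groups differ by the Cre transgene as well as by the deletion. *Osr2-Cre* is described by the study as acting in dental mesenchyme and alveolar bone and not in dental epithelium. The labels do not state whether a library came from 1 animal or from pooled molars, and p-values measure the spread between these libraries, which may be technical.

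Red blood cells are filled with hemoglobin, which is assembled from alpha and beta globin chains and heme. Globin messages are among the most abundant transcripts of erythroblasts and of the reticulocytes that still circulate with RNA shortly after birth, whereas mesenchymal cells do not make them in quantity. Dental pulp is vascular, so dissected pulp carries blood, and bone next to the tooth can add marrow. In these bulk libraries, fewer red cells and less globin RNA per red cell cannot be told apart. The alpha genes *Hba-a1* and *Hba-a2* lie together on chromosome 11, and the beta genes *Hbb-bs* and *Hbb-bt* lie together on chromosome 7.

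The members of each globin pair are near copies, and this limits what reads of 75 bases can assign to either gene. In the mm10 transcripts of GENCODE release M21, the coding sequences of *Hba-a1* and *Hba-a2* had 426 bases and differed at 1 of them, C381T (the base in *Hba-a1*, its position counted from the A of the start codon, then the base in *Hba-a2*). The coding sequences of *Hbb-bs* and *Hbb-bt* had 441 bases and also differed at 1 position, C417T (the base in *Hbb-bs* first). The coding windows of 90 bases around these positions are shown, because a read that lies in coding sequence can tell the copies apart only if it covers the base in capitals. The windows lie at chr11:32284298-32284387 and chr11:32297115-32297204 (plus strand) for *Hba-a1* and *Hba-a2*, and at chr7:103826668-103826757 and chr7:103812659-103812748 (minus strand) for *Hbb-bs* and *Hbb-bt*.
Hba-a1: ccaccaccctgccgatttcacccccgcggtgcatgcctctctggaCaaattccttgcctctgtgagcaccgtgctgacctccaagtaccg
Hba-a2: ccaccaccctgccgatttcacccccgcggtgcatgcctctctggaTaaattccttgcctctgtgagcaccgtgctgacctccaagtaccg
Hbb-bs: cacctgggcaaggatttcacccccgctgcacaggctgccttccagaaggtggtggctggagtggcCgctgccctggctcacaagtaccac
Hbb-bt: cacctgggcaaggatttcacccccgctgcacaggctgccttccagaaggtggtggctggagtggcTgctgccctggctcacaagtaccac

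Counted over all annotated transcripts, *Hba-a1* shared 67.9% of its 75-base stretches with *Hba-a2*, and *Hba-a2* shared 84.6% with *Hba-a1*. *Hbb-bs* shared 51.5% of its stretches with *Hbb-bt*, and *Hbb-bt* shared 56.6% with *Hbb-bs*. No other gene shared a stretch with these 4 genes. The sum over a pair therefore holds the reads that either copy could claim, provided that the counting kept them. How the counting treated such reads is not stated. *Alas2* and *Slc4a1* shared no stretch with any other gene. Values of single globin genes are therefore uncertain, and the sums of the pairs are given beside them.

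The libraries held 56134770 to 62628940 estimated counts. Expression is given in CPM, a gene's count relative to the library size after TMM scaling in edgeR. The tissue label was checked against its markers, and all libraries held the odontoblast and pulp matrix transcripts in quantity, with *Dspp* at 2515 to 7979 CPM and *Col1a1* at 9883 to 37132 CPM. *Ror2*, the targeted gene, fell from 37.0 ± 1.03 CPM in control to 27.4 ± 0.961 CPM in mutant libraries (SD, n = 3, edgeR adjusted p of 0.013). This call was lost with the replicate block, without control library 2 and without control library 3. In these fits 5.18%, 2.17% and 2.08% of all genes were called lower. Among the control labels, that of library 1 has a letter code of its own, and the number series in the labels differ between control and mutant libraries. What the codes and numbers stand for is not explained, and among the 6 libraries analyzed a handling set that followed them cannot be told apart from genotype.

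All 4 globins together made up a small part of each library, at 0.0726% to 0.134% of the estimated counts in control and 0.0227% to 0.0949% in mutant libraries. The globin sum was 1296, 769 and 862 CPM in control libraries 1, 2 and 3 and 240.4, 923 and 319 CPM in mutant libraries 1, 2 and 3. Mutant libraries 1 and 3 were below every control library, whereas mutant library 2 was above control libraries 2 and 3. The group means were 976 ± 281 CPM in control and 494 ± 373 CPM in mutant libraries (SD, n = 3), and the ratio of the means was -0.98 on the log2 scale. Without mutant library 2 this ratio was -1.79, a change larger than the spread between libraries.

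**Figure D1:**
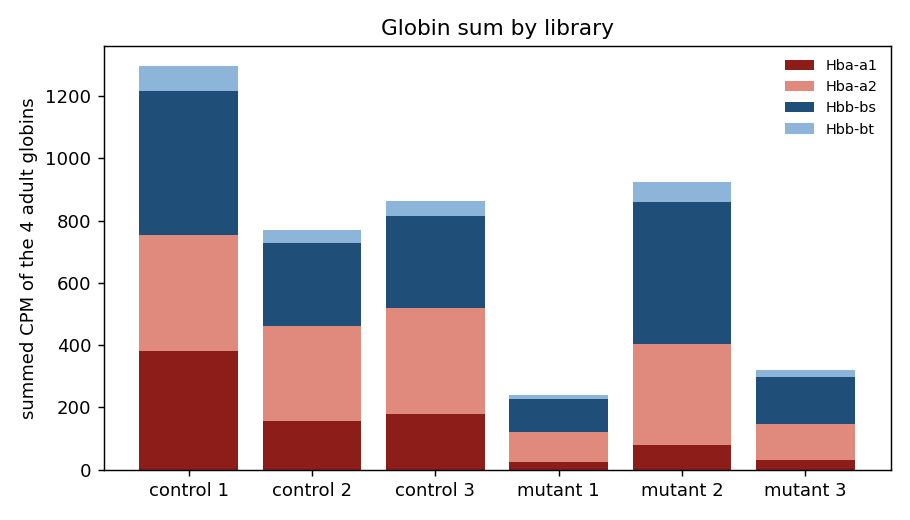
Stacked bars show the summed CPM of *Hba-a1*, *Hba-a2*, *Hbb-bs* and *Hbb-bt* in each of the 6 libraries. Control library 1 is the tallest at 1296 CPM, and mutant library 2 at 923 CPM stands within the range of the control libraries.

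Of the 6 genes with a row, *Hba-a1* and *Alas2* passed the threshold of 0.05, and both were lower in mutant libraries (quasi-likelihood test of edgeR, adjusted by Benjamini and Hochberg's method across 19330 genes). These are 2 of 6, where 20.2% of all genes tested were called, 9.84% as lower and 10.4% as higher. The control and mutant libraries did not overlap for the same 2 genes, where 22.1% of all genes were lower without overlap. The other 4 genes overlapped between the groups. The median log2 fold change of the 6 genes was -0.86, and that of all genes tested was 0.01.

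*Hba-a1* (ENSMUSG00000069919.7, chr11:32283511-32284465, plus strand), which encodes an alpha chain, was at 380.4, 156 and 179.7 CPM in control libraries 1 to 3 and at 25.7, 80.6 and 31.4 CPM in mutant libraries 1 to 3. Every mutant library was below every control library. Its log2 fold change was -2.38 ± 0.49 (SE) by edgeR, with an adjusted p of 0.016, or 5.2-fold lower in mutant libraries. The other alpha gene, *Hba-a2* (ENSMUSG00000069917.7, chr11:32296489-32297298, plus strand), was at 374, 305 and 339 CPM in control and at 95.9, 324 and 114 CPM in mutant libraries. Mutant libraries 1 and 3 were well below the control range and mutant library 2 lay within it. The log2 fold change of *Hba-a2* was -0.93 ± 0.41 (SE) by edgeR, with an adjusted p of 0.14, which did not pass the threshold.

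The alpha pair summed to 754, 462 and 519 CPM in control and to 121.7, 405 and 145.3 CPM in mutant libraries, and the groups did not overlap. With the globin pairs summed before the fit across all genes, the alpha pair had a log2 fold change of -1.37 ± 0.44 (SE) by edgeR, with an adjusted p of 0.058. The summed pair did not pass the threshold that *Hba-a1* passed when counted as a gene of its own. The share of the alpha sum counted on *Hba-a1* was 50.4%, 33.9% and 34.7% in control libraries 1 to 3 and 21.2%, 19.9% and 21.6% in mutant libraries 1 to 3. Control library 1 stood above the other 2 control libraries, and the 3 mutant shares lay close together below all of them (two-sided exact permutation test, p = 0.1, the smallest p that 3 against 3 libraries allow).

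Of the beta genes, *Hbb-bs* (ENSMUSG00000052305.6, chr7:103826534-103828096, minus strand) was at 462, 265 and 297 CPM in control and at 104, 456 and 153 CPM in mutant libraries. Mutant library 2 nearly matched control library 1, the highest of all. The log2 fold change was -0.52 ± 0.50 (SE) by edgeR, with an adjusted p of 0.47. *Hbb-bt* (ENSMUSG00000073940.3, chr7:103812524-103813996, minus strand) was at 79.8, 42.3 and 46.7 CPM in control and at 14.6, 62.1 and 21.5 CPM in mutant libraries, with a log2 fold change of -0.78 ± 0.50 (SE) by edgeR, with an adjusted p of 0.28. Neither beta gene passed the threshold, and both had the same order of libraries within each group. *Hbb-bt* held 13.6% to 14.7% of the beta sum in control and 11.99% to 12.4% in mutant libraries, without overlap (two-sided exact permutation test, p = 0.1). With the pairs summed before the fit, the beta pair had a log2 fold change of -0.56 ± 0.50 (SE) by edgeR, with an adjusted p of 0.44.

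**Figure D2:**
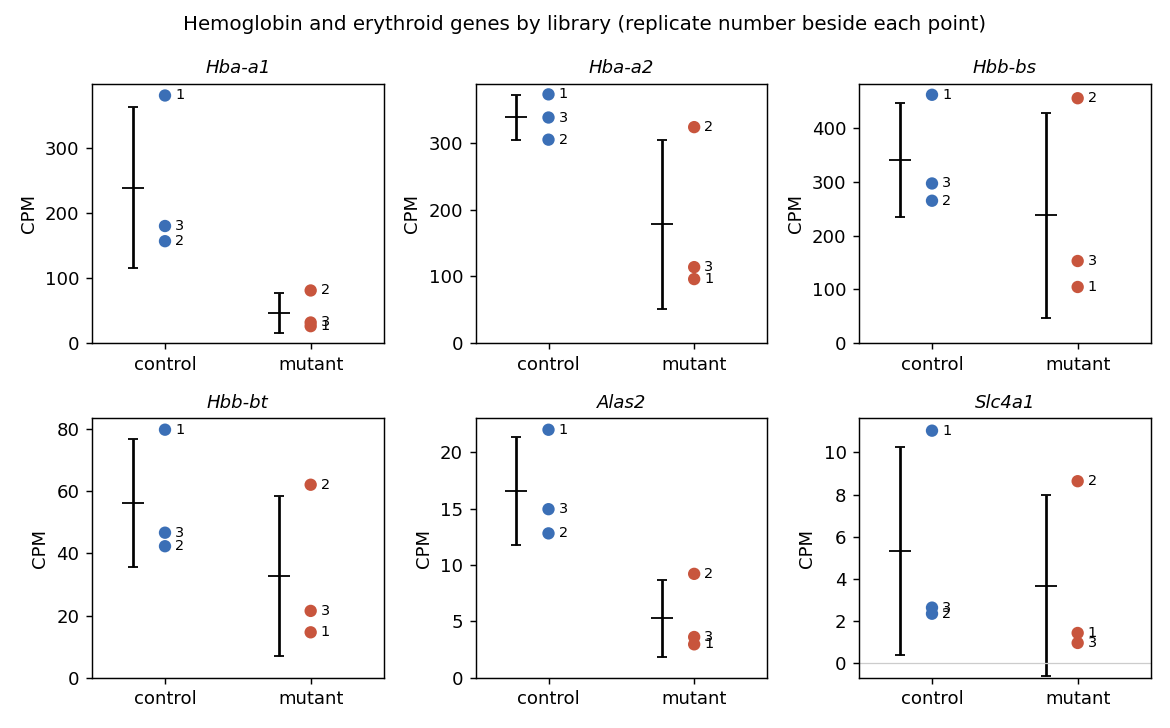
Each panel shows the CPM of 1 gene in the 3 control (blue) and 3 mutant (red) libraries with the replicate number beside each point, and the bar beside the points gives the mean ± SD. *Hba-a1* and *Alas2* do not overlap between the groups, while mutant library 2 lies within or near the control range for *Hba-a2*, *Hbb-bs*, *Hbb-bt* and *Slc4a1*.

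*Alas2* (ENSMUSG00000025270.13, chrX:150547375-150570638, plus strand) encodes the erythroid form of 5-aminolevulinate synthase, the enzyme that commits glycine and succinyl-CoA to heme. It was at 22.02, 12.8 and 15.0 CPM in control and at 2.96, 9.22 and 3.61 CPM in mutant libraries. All mutant libraries were below all control libraries, and mutant library 2 was the nearest to them. The log2 fold change was -1.66 ± 0.41 (SE) by edgeR, with an adjusted p of 0.029, or 3.16-fold lower. As *Alas2* shared no stretch of 75 bases with another gene, its reads could not be divided with a copy.

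*Slc4a1* (ENSMUSG00000006574.15, chr11:102348824-102366203, minus strand) encodes band 3, the anion exchanger of the red cell membrane. It was at 11.02, 2.35 and 2.64 CPM in control and at 1.44, 8.63 and 0.966 CPM in mutant libraries, from 57 to 710 counts a library. Control library 1 and mutant library 2 stood far above the other libraries of their groups, by 4.42-fold and 7.18-fold over the mean of the other 2. The log2 fold change was -0.54 ± 0.86 (SE) by edgeR, with an adjusted p of 0.68, and without control library 1 its sign turned to 0.55 (standard error 0.89). A difference of *Slc4a1* of the size measured is within this error.

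Compared per length of exon, the order of the 6 genes within control libraries was led by *Hba-a2* at 458 to 560.1 CPM per kilobase and *Hbb-bs* at 345 to 602 CPM per kilobase. *Hba-a1* followed at 193 to 468 and *Hbb-bt* at 60.2 to 114 CPM per kilobase. *Alas2* at 5.33 to 9.16 and *Slc4a1* at 0.481 to 2.25 CPM per kilobase were far lower. The ranges of *Hba-a2*, *Hbb-bs* and *Hba-a1* overlapped, and those of the lower 3 genes did not. In mutant libraries *Hba-a2* and *Hbb-bs* again overlapped, at 144 to 486 and 136 to 593 CPM per kilobase, and *Hba-a1* at 31.7 to 99.3 overlapped *Hbb-bt* at 20.8 to 88.3 CPM per kilobase.

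Ratios between these genes were then compared within each library. The alpha to beta ratio of the summed CPM was 1.39, 1.504 and 1.51 in control libraries and 1.02, 0.782 and 0.835 in mutant libraries. *Alas2* stood at 17.0, 16.7 and 17.4 CPM per 1000 CPM of globin in control and at 12.3, 9.99 and 11.3 in mutant libraries. Both ratios were close within a group and did not overlap between the groups (two-sided exact permutation tests, p = 0.1 for each, the smallest these groups allow, and 0.12 after adjustment). The alpha sum includes *Hba-a1*, so the alpha to beta ratio and the *Hba-a1* share are not separate results. A ratio without *Hba-a1* was not tested, but its values overlap between the groups. In mutant library 1 *Hba-a2* was at 95.9 CPM against a beta sum of 118.8 CPM. In control library 1 it was at 374 CPM against 542 CPM, the smaller ratio. Control libraries 2 and 3 were above every mutant library in this ratio. The separation of the alpha to beta ratio therefore rests in part on reads counted on *Hba-a1*. The amount of globin varied within the mutant group by 3.84-fold between its highest and lowest library, and the ratios included mutant library 2 with the other mutant libraries. The ratio of *Slc4a1* to globin behaved otherwise, at 8.51, 3.06 and 3.06 CPM per 1000 CPM of globin in control and at 5.98, 9.35 and 3.03 in mutant libraries, and the groups overlapped (two-sided exact permutation test, p = 0.7, also after adjustment). In all, 6 ratios and shares were tested, and with 3 libraries a group none of them could pass the threshold.

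**Figure D3:**
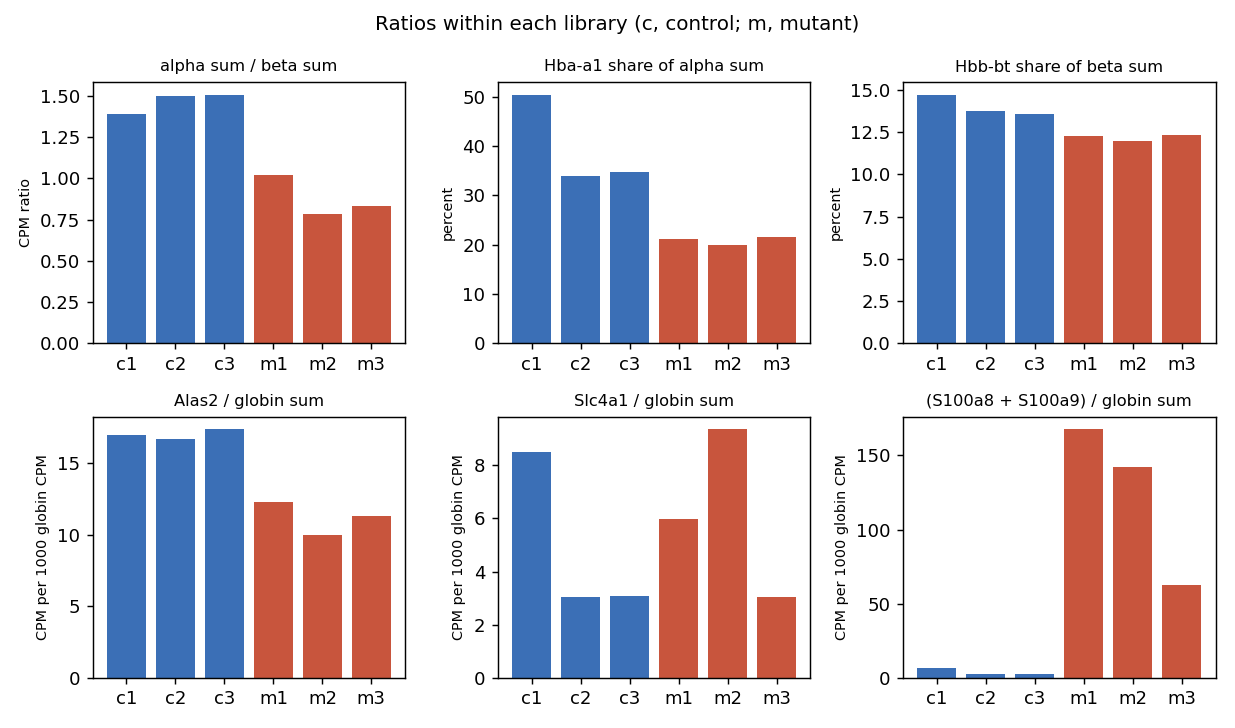
Bars show, for each control (blue) and mutant (red) library, the alpha to beta ratio of summed CPM, the shares of *Hba-a1* and *Hbb-bt* in their pair sums in percent, and *Alas2*, *Slc4a1* and *S100a8* plus *S100a9* per 1000 CPM of globin. The ratio of *Slc4a1* to globin is the only one of the 6 in which the groups overlap.

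The calls on these genes depended on single libraries. Without mutant library 2, 5 of the 6 genes were called lower in mutant libraries, against 8.99% of all genes tested in that fit, and the log2 fold changes were -1.68 for *Hba-a2* (adjusted p = 0.00042), -1.40 for *Hbb-bs* (adjusted p = 0.016) and -2.33 for *Alas2* (adjusted p = 0.0024 from edgeR in each case). Without mutant library 1, none of the 6 was called by edgeR's quasi-likelihood test, against 5.71% of all genes, although 2 had an unadjusted p-value under 0.05. For *Hba-a1* the fold change in that fit was -2.10 on the log2 scale, and the edgeR adjusted p was 0.051. In the other 4 fits without 1 library *Hba-a1* alone was called, against 7%, 2.17%, 2.08% and 12.5% of all genes called lower without control library 1, 2 or 3 or mutant library 3. *Alas2* passed the threshold only without mutant library 2 among these 6 fits, with log2 fold changes from -2.33 to -1.37. With all libraries and limma voom with quality weights, 5 of the 6 genes were called lower (16.4% of all genes), and with the globin pairs summed *Alas2* alone (9.85%). Both genes were called with DESeq2's Wald test (14.0% of all genes called lower), edgeR's likelihood ratio test (13.2%), DESeq2's size factors (9.91%), scaling by total count (10.7%) or without the globins (9.84%), no filter (5.93%), a filter of 1 CPM in 3 libraries (11.8%) and the replicate block (5.18%).

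**Figure D4:**
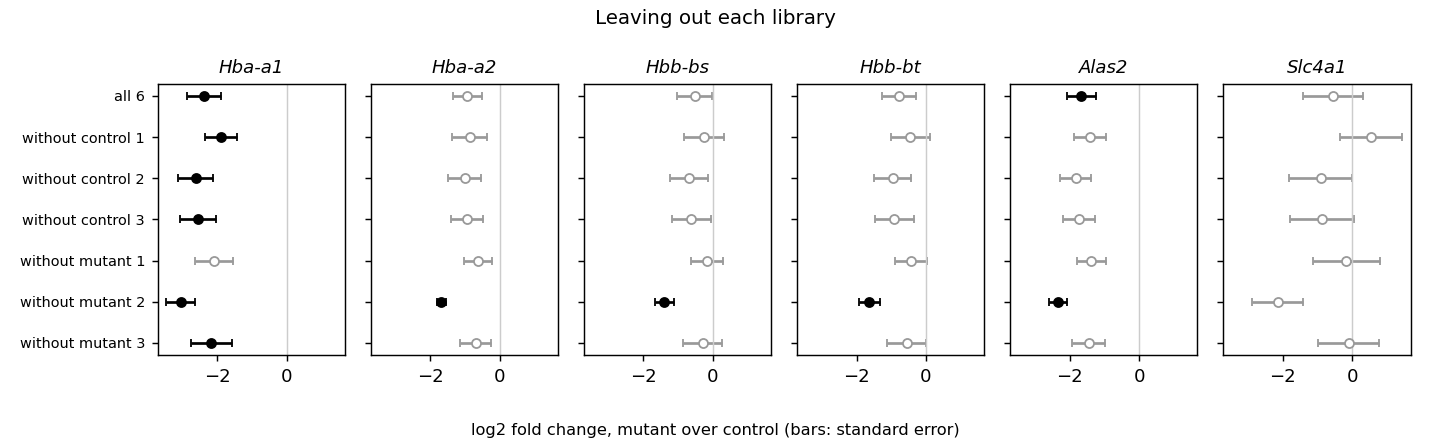
Points give edgeR's log2 fold change of mutant over control for each gene with all 6 libraries and with each library left out, and bars give the standard error. Filled black points have an adjusted p-value under 0.05 and open gray points do not. Leaving out mutant library 2 moves all 6 genes to lower values.

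The other genes of the red cell were counted in lists of 67 genes, of which 54 passed the filter on low counts. Of these, 3 were called higher and 4 lower in mutant libraries, where 10.4% of all genes tested were called higher and 9.84% lower. The median log2 fold change of the 54 genes was 0.03. Calls on these lists depended on single control libraries. Calls across all genes fell too, to 2.40% higher and 2.17% lower without control library 2. The shares were 2.31% and 2.08% without control library 3. Without control library 2, and without control library 3, edgeR called none of the genes of heme synthesis and iron supply (5 and 3 at an unadjusted p-value under 0.05) and none of the membrane genes (2 in each fit), and the 3 calls among red cell enzymes and maturation became 2 and 1. Embryonic beta globin *Hbb-y* had at most 2 counts in a library, under the limit of 3 counts that a count of 0 allows. The theta globin gene *Hbq1b* lies between the alpha genes and was higher in mutant libraries, at 0.180 ± 0.0362 CPM in control and 0.531 ± 0.260 CPM in mutant libraries (SD, n = 3, adjusted p = 0.043 from edgeR, 9 to 47 counts a library). This call was lost with no filter, with the replicate block and in each fit without 1 library except that without mutant library 3, although the unadjusted p-value of edgeR stayed under 0.05 in these fits.

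Of 14 genes of heme synthesis and iron supply, 1 was called higher and 1 lower (10.4% and 9.84% of all genes). *Ppox*, the enzyme before the last step of heme synthesis, was at 14.2, 13.7 and 13.8 CPM in control and at 26.2, 62.9 and 21.2 CPM in mutant libraries (log2 fold change 1.40, adjusted p = 0.032 from edgeR), with mutant library 2 far above the rest. *Steap3*, an endosomal ferrireductase, fell from 29.1 ± 2.05 to 20.5 ± 1.51 CPM (SD, n = 3, adjusted p = 0.015 from edgeR). *Urod*, which acts earlier in the same pathway, was at 22.9 ± 1.44 CPM in control and 28.2 ± 0.874 CPM in mutant libraries and missed the threshold (edgeR adjusted p of 0.057). These enzymes are made in most cells, unlike *Alas2*.

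Of 17 genes of the red cell membrane and its skeleton, 16 were tested and 1 was called, as lower (9.84% of all genes). *Epb41*, encoding protein 4.1 of the membrane skeleton and expressed in many tissues, fell from 55.1 ± 4.46 to 39.6 ± 1.27 CPM (SD, n = 3, adjusted p = 0.013 from edgeR). *Gypc* was at 36.9 ± 4.44 in control and 27.2 ± 4.33 CPM in mutant libraries (adjusted p = 0.059) and *Xk* at 1.14 ± 0.101 and 0.688 ± 0.208 CPM (adjusted p = 0.10 from edgeR, n = 3 for both). From the genes of this list that are largely restricted to the red cell lineage, *Epb42* and *Rhag* were picked after their values were seen. *Epb42*, encoding protein 4.2, was at 0.823, 0.154 and 0.178 CPM in control and at 0.0338, 0.520 and 0.136 CPM in mutant libraries. In *Epb42*, as in *Slc4a1*, control library 1 and mutant library 2 were the highest of their groups. The Rh-associated glycoprotein gene *Rhag* was under the filter, with 1 to 17 counts a library and its highest values in the same 2 libraries. Not all genes of the list had this order. *Rhd* and *Tmod1* were highest of their groups in control library 2 and mutant library 2, and *Xk* in control library 3 and mutant library 3.

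None of the 7 erythroid transcription regulators and receptors tested, of 9 listed, was called by edgeR's quasi-likelihood test, against 20.2% of all genes. In that test 1, *Zfpm1*, had an unadjusted p-value under 0.05, and 1 was called by limma voom. *Klf1*, the factor that binds CACCC boxes of erythroid promoters, was at 0.325 ± 0.0282 CPM in control and 0.349 ± 0.200 CPM in mutant libraries (SD, n = 3). *Gata1* was under the filter with 1 to 14 counts a library. The genes of this list with the smallest p-values, *Zfpm1*, *Nfe2* and *Bcl11a*, had adjusted p-values from 0.11 to 0.18 (edgeR). Of 19 genes of red cell enzymes and maturation, 16 were tested, with 1 called higher and 2 lower (10.4% and 9.84% of all genes). *Bnip3l*, a mitophagy receptor used when reticulocytes clear mitochondria and present in other tissues too, fell from 77.3 ± 3.90 to 54.5 ± 0.784 CPM (adjusted p = 0.0077). *Ypel4* rose from 3.72 ± 0.200 to 7.29 ± 1.06 CPM (adjusted p = 0.0062 from edgeR, n = 3 for both genes).

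Upstream of their start sites, the globin genes and *Alas2* carry boxes that erythroid factors are known to read, and the upstream sequences of *Hba-a2* and *Alas2* are shown as the windows behind the most abundant alpha gene and the called gene with no copy. Promoter sequences of RefSeq on GRCm38.p6, the mm10 assembly, were found for 5 of the 6 genes. Searched on both strands over 250 bases before the start site, GATAA, the core that GATA factors bind, occurred once in each of the 5. CACCC occurred in all 5, TATAA in all 5, and CCAAT in the 4 globin genes and not in the *Alas2* window. The 3 CACCC matches of *Alas2* lie outside the 200 bases shown. Among 32536 promoter windows of the same length, 22.5% held GATAA, 52.1% CACCC, 33.8% CCAAT and 22.7% TATAA. The 200 bases shown end before the annotated transcript, at chr11:32296289-32296488 for *Hba-a2* and chrX:150547175-150547374 for *Alas2* (plus strand), and capitals mark these 4 motifs on either strand, some of which touch or overlap. A match is a description of the letters and says nothing about binding in these libraries.
Hba-a2: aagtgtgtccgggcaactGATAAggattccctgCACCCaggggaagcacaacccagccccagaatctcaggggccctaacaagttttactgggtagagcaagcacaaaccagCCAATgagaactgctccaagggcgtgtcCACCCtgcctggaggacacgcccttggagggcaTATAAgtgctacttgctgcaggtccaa
Alas2: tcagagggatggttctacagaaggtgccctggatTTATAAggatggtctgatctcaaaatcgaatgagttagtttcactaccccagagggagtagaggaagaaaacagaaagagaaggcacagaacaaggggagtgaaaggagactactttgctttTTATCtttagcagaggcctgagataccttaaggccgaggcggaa

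Neutrophil genes were counted as a sign of another blood cell. Of 12 neutrophil genes, 11 were tested and 5 were called higher in mutant libraries and none lower (10.4% of all genes were called higher). *S100a8*, a calcium-binding protein abundant in neutrophils, was at 3.20, 0.635 and 0.842 CPM in control and at 20.7, 70.2 and 10.5 CPM in mutant libraries (log2 fold change 4.42, standard error 0.85, adjusted p = 0.013 from edgeR). *Ngp*, a granule protein made by maturing neutrophils in marrow, was at 2.61, 0.412 and 0.713 CPM in control and at 11.1, 27.7 and 5.39 CPM in mutant libraries (adjusted p = 0.018). *S100a9* had an adjusted p-value of 0.023 (edgeR), and its groups did not overlap either. Without control library 2, and without control library 3, none of the 12 neutrophil genes then tested was called by edgeR, although 7 and 6 of them had an unadjusted p-value under 0.05 (2.40% and 2.31% of all genes were called higher in these fits). With the replicate block 3 of the 11 were called higher by edgeR, and 10 had an unadjusted p-value under 0.05. In that fit 2013 of all 19330 genes were called. Per 1000 CPM of globin, *S100a8* and *S100a9* together stood at 6.70, 2.27 and 2.70 CPM in control and at 167, 142 and 62.4 CPM in mutant libraries (two-sided exact permutation test, p = 0.1). Both genes were named for their small p-values in the same libraries, so this ratio is not a separate result.

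Within each group the library with the most globin also had the highest sum of neutrophil genes. The 12 neutrophil genes summed to 40.4, 21.8 and 26.4 CPM in control and to 101.7, 220.7 and 50.8 CPM in mutant libraries, so control library 1 and mutant library 2 led their groups. The genes of the list were not alike in this. *Mmp9*, a gelatinase that other cells make too, was not called, supplied 20.9, 18.1 and 20.8 CPM of the control sums, and among mutant libraries was highest in library 1 at 35.2 CPM against 21.7 CPM in library 2. *Dspp* and *Col1a1* were lowest of each group in control library 1 and mutant library 2. *Dmp1*, another matrix gene of odontoblasts, differed in control, at 64.8 CPM in library 1 and 61.1 to 61.2 CPM in the other 2 libraries. In mutant libraries 1 to 3 *Dmp1* was at 90.9, 43.5 and 56.5 CPM, so library 2 was again the lowest. *Dspp* in control library 1 was 0.441 times, and in mutant library 2 0.477 times, the mean of the other 2 libraries, and for *Col1a1* the ratios were 0.348 and 0.478. The part of this tissue composition in the values of the globins was not tested.

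**Figure D5:**
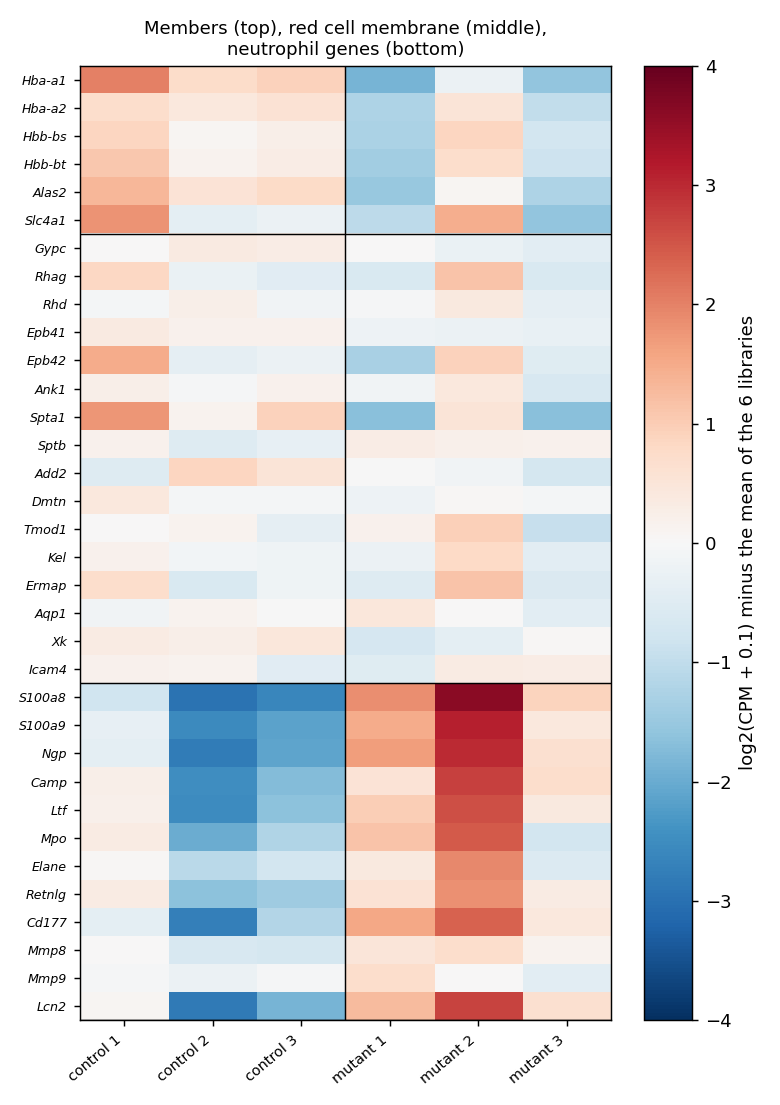
Colors give log2(CPM + 0.1) minus the mean of the 6 libraries for the 6 hemoglobin and erythroid genes, genes of the red cell membrane list and the neutrophil list. *Slc4a1* and *Epb42* are the highest of each group in control library 1 and mutant library 2, and *S100a8*, *S100a9* and *Ngp* are higher in all mutant than in all control libraries.

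Markers of other cells of blood and vessels were given by whole lists, where 10.4% of all genes were called higher and 9.84% lower. Of 10 platelet genes 4 were tested, with *Itga2b* called higher and *Pf4* lower, and *Gp9*, *Gp5* and *Ppbp* were under the filter. Of 10 lymphocyte genes 6 were tested and 1, *Cd3g*, was called higher, at 0.361 ± 0.0776 CPM in control and 1.06 ± 0.498 CPM in mutant libraries. Of 10 macrophage genes *Cx3cr1* and *Adgre1* were called lower, and of 12 endothelial genes *Egfl7* alone was called, as higher. The summed levels of the endothelial list were 302 to 396 CPM in control and 315 to 392 CPM in mutant libraries, and those of the macrophage list were 176 to 217 and 147 to 238 CPM, overlapping between the groups. The endothelial sum was lowest of each group in control library 1 and mutant library 2, which held the most globin. The macrophage sum was lowest in control library 1 and mutant library 3. None of the genes of these 4 lists was called by edgeR without control library 2 or without control library 3, where in each fit 2 platelet, 1 lymphocyte, 3 macrophage and 1 endothelial gene had an unadjusted p-value under 0.05. Across all genes, 2.40% and 2.31% were called higher in these fits, and 2.17% and 2.08% lower. With the replicate block, 1 platelet gene was called lower and 1 endothelial gene higher, against 2013 of all 19330 genes. No lymphocyte or macrophage gene was called with the block. Without mutant library 3, 3 macrophage genes were called higher and 1 lower, against 5001 of 19831 genes. No lymphocyte gene was called in that fit, or without control library 1, where 2680 of 19842 genes were called.

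Genes that take up or break down hemoglobin and heme were tested as a list of 11, with 3 called higher and 1 lower, where 10.4% of all genes were called higher and 9.84% lower. Without control library 2, and without control library 3, 1 was called higher and none lower, with 4 of the 11 at an unadjusted p-value under 0.05 by edgeR in each fit. Across all genes, 2.40% and 2.31% were called higher in these fits, and 2.17% and 2.08% lower. *Hmox1*, the inducible heme oxygenase, rose from 12.4 ± 1.22 to 23.1 ± 0.874 CPM (SD, n = 3, log2 fold change 0.89, adjusted p = 0.0021 from edgeR). *Ftl1*, the ferritin light chain that stores iron, rose from 429 ± 24.4 to 627 ± 48.4 CPM (adjusted p = 0.018), and *Slc40a1*, the iron exporter ferroportin, fell from 23.3 ± 3.85 to 13.4 ± 2.07 CPM (adjusted p = 0.015 from edgeR, n = 3 for both). *Hp*, encoding haptoglobin, which binds free hemoglobin, was also called higher, at 0.368 ± 0.220 CPM in control and 1.70 ± 0.958 CPM in mutant libraries (adjusted p = 0.026 from edgeR, n = 3). *Cd163*, its receptor on macrophages, ranged from 3.76 to 4.66 CPM in control and from 2.68 to 13.8 CPM in mutant libraries and was not called. *Hmox1* varied by 1.08-fold within the mutant group, in which globin varied by 3.84-fold.

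As a description of likeness, log2(CPM + 0.1) was set against the globin sum after removing each group's mean. Of the other 19324 genes tested, 7.2% had a Pearson r of at least 0.9 over the 6 libraries, so likeness on so few libraries is weak. The 10 most alike were *Clec12a*, *Fah*, *BC051226*, *Gm8960*, *Traf7*, *Timm44*, *Gm29008*, *Rabl6*, *Arpc5l* and *Gm7936*, with r from 0.998 to 0.9998, and none is on the red cell lists. *Clec12a*, a lectin of myeloid cells, was at 1.03 to 1.41 CPM in control and 0.575 to 1.30 CPM in mutant libraries.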

How the data were processed

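Dental pulp RNA of 3 control and 3 mutant libraries was sequenced as single-end reads of 75 cycles. The authors deposited estimated counts per gene, without normalization, made by alignment to mm10 and counting over exons. The methods name TopHat 2, and the submitters' processing notes name STAR 2.6.1d and Partek. The counting program and its strand setting are not given in the sources used here. Of the deposited values, 48.7% were whole (within 1e-09). A table of the same libraries scaled by the authors was not used, nor were 6 columns of other samples. Stop positions in the table lie 1 base past the GENCODE M21 gene ends and were reduced by 1.

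Groups were taken from the genotype labels. The estimated counts were rounded and scaled with TMM, genes were kept by filterByExpr, and groups were compared without a block by the quasi-likelihood test of edgeR, adjusted by Benjamini and Hochberg's method (R 4.3.3, edgeR 4.0.16, limma 3.58.1, DESeq2 1.42.0), after tests on simulated data. The fixed design assumed counts, and the deposited values are estimated counts. Sums over globins have no p of their own except in the fit with summed pairs. Shares and ratios were compared by exact permutation of libraries. The 7 genes and all gene lists were chosen with earlier results of these data known. Named from each list are the 3 genes with the smallest p, and the 10 genes most like the globin sum. *Epb42*, *Rhag*, *Rhd*, *Tmod1*, *Klf1*, *Gata1*, *Hp*, *Cd163* and the genes named by count were added after their values were seen. Alternatives were other tests, scalings, filters, the replicate block, summed globin pairs and leaving out each library. Some genes of the lists are counted but not reported here by name. Limits from counts cover counting error only.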

Additional observations from a re-analysis of the deposited data

How the results depend on the processing

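The number of the 6 genes called, 2, was unchanged with the Wald test of DESeq2, the likelihood ratio test of edgeR, 3 other scalings, 2 other filters and the replicate block. It was 5 with limma voom and quality weights and 1 with the globin pairs summed, where *Hba-a1* and *Hba-a2* are no longer separate, and it ran from 0 to 5 over the fits without 1 library. Across all genes, 3906 were called, against 6341 with limma voom and 872 to 5001 without 1 library. With the replicate block the number was 2013. The labels do not say what the sample index shared by both groups marks. Deviations of same-numbered libraries correlated at -0.1, -0.08 and 0. With so few libraries these values cannot decide whether the numbers pair the libraries. The log2 ratios of the sums stayed negative under every scaling and in every fit without 1 library, where they ran from -1.79 to -0.65 for the globin sum, from -2.11 to -1.07 for the alpha sum and from -1.44 to -0.20 for the beta sum. *Slc4a1* ran from -2.15 without mutant replicate 2 to 0.55 without control replicate 1, where its sign turned. For the other 5 genes the log2 fold change was negative in every alternative. The cause of these differences was not tested. The number of libraries and, for single globins, the division of reads between copies limit the globin values rather than depth. Each globin value rests on at least 863 counts, whereas *Slc4a1* rests on 57 counts in its lowest library.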
